A study of Homo sapiens with 14 samples.

Results

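PLAU, PLAUR, THBS1, GLIPR1, CD69 and IQCN are 6 genes whose RNA stood much higher in Kasumi-1 cells given the compound RB98 than in cells given DMSO. They were picked from the measured values for large rises with RB98, together with partners in the urokinase system. All 6 were found by symbol in both gene tables, among 12325 genes of the RB98 table and 16405 of the knockdown table, and all 6 passed the filter on low counts in both. The members were chosen on the contrast of RB98 with DMSO, so that contrast is described here without a test, and the knockdown of RBPMS, which the choice did not use, is tested.

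Kasumi-1 is a human myeloblast line from peripheral blood that carries the 8;21 chromosome translocation. One RNA-seq experiment compared cells given RB98 (n = 2; some labels write RB98#) with cells given DMSO (n = 2). RB98 is known here only by its code name, and no dose or time is given in the labels. The other compared cells given an shRNA against RBPMS (shRBPMS, n = 3) with cells given a scramble shRNA (shCtrl, n = 3), after 48 h of lentivirus and 48 h of puromycin. The labels do not say how many shRNA sequences were used or whether replicates were separate cultures, so p-values measure the spread between these libraries, which may be technical. The other 4 of 14 samples, which come from RIP and m6A libraries, are not analysed here.

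The urokinase system turns plasminogen into plasmin at the cell surface. Urokinase, the secreted protease that PLAU encodes, binds the surface receptor that PLAUR encodes, and inhibitors such as PAI-1 block it. THBS1 encodes thrombospondin 1, a secreted glycoprotein of platelets and matrix that binds CD36 and CD47 and can activate TGF-beta. GLIPR1 encodes a protein of the CAP family, which is largely secreted or membrane-bound, and CD69 encodes a C-type lectin known as an early activation antigen of leukocytes. IQCN encodes a protein with calmodulin-binding IQ motifs that is known from sperm and is not known as a secreted or surface protein, so the name secreted and surface genes covers the other members but not IQCN.

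Library totals ran from 13.9 to 15.3 M counts (1 M is 1e6) in the RB98 experiment and from 24 to 34.4 M in the knockdown experiment. Levels below are CPM, counts per 1e6 counts after TMM scaling, unless FPKM is named. RBPMS, the target of the shRNA, had 2.53, 3.34 and 3.08 CPM in shRBPMS libraries, against 20.4, 7.24 and 7.39 CPM in shCtrl libraries. The log2 change was -1.96 without a replicate block (edgeR adjusted p = 0.0846) and -1.79 with it (adjusted p = 0.0106), with no overlap of the groups. RBPMS had 6.62 and 8.06 CPM with RB98, against 7.17 and 6.40 CPM with DMSO (log2 change 0.11, adjusted p = 0.678). By their label numbering the knockdown libraries form a set 1, with replicate 1 of both groups, and a set 2, with the others, and the labels give no meaning for the sets. Of the myeloblast markers KIT, CD34, MPO, CD33, ANPEP, CD38, PTPRC and CD4, all 8 passed the filter in both experiments. Passing the filter does not set a cell type apart. CD38 passed at 1.54 CPM with RB98 and 1.67 CPM with DMSO, and the endothelial marker PECAM1 and the epithelial marker EPCAM also passed. MPO, the granule peroxidase of myeloid blasts, was at 15203 ± 632 CPM with RB98 and 13012 ± 61.5 CPM with DMSO (SD, n = 2 each).

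With RB98 all 6 genes were at 2.88 to 13.4 times their DMSO level. PLAU had 299 and 290 CPM in RB98 libraries, against 56.8 and 54.1 CPM in DMSO libraries. PLAUR had 45.2 and 44.7 CPM with RB98, against 16.2 and 15 CPM with DMSO. RNA of the protease and of its receptor was therefore higher in each RB98 library than in either DMSO library. In the group means PLAU stood at 5.31 times and PLAUR at 2.88 times the DMSO level. THBS1 had 53.8 and 56.5 CPM with RB98, against 4.57 and 5.21 CPM with DMSO, from 788 and 757 counts, against 67 and 83 counts. GLIPR1 had 169 and 140 CPM with RB98, against 12.4 and 16.6 CPM with DMSO. These are ratios of 11.3 for THBS1 and 10.7 for GLIPR1, and the libraries of the groups lay far apart. CD69 had 163 and 156 CPM with RB98, against 28.5 and 31.5 CPM with DMSO, a ratio of 5.30. IQCN had 38.8 and 31.7 CPM with RB98, against 2.39 and 2.89 CPM with DMSO, from 569 and 425 counts, against 35 and 46 counts. Its ratio of 13.4 was the highest of the 6.

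**Figure D1:**
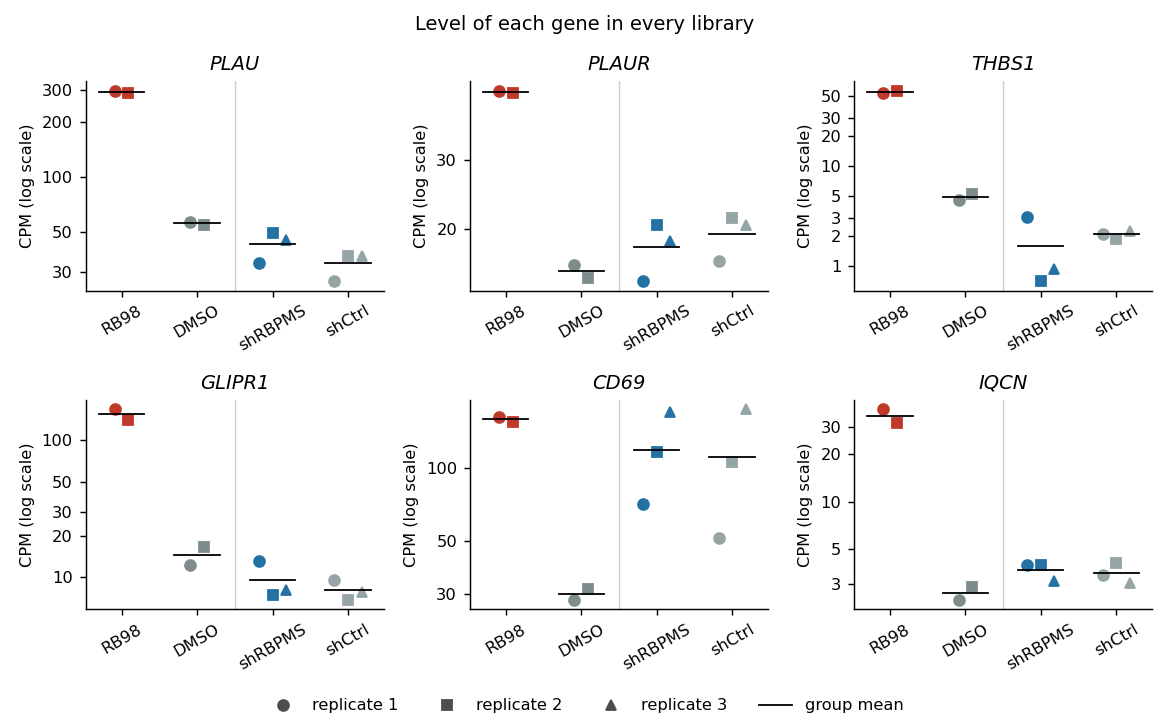
Level of each gene in every library, in CPM on a log axis, with RB98 left of DMSO and shRBPMS left of shCtrl. Points are libraries, marker shape gives the replicate number and lines are group means; every RB98 library lies above both DMSO libraries, while shRBPMS and shCtrl libraries overlap for all 6 genes.

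On the log2 scale the RB98 change was 3.73 (SE 0.17) for IQCN, 3.49 (SE 0.12) for THBS1 and 3.41 (SE 0.11) for GLIPR1. It was 2.41 for PLAU (SE 0.07) and for CD69 (SE 0.08), and 1.53 (SE 0.10) for PLAUR. Ordered by this change among 12324 genes tested, IQCN was at place 7, THBS1 at 10 and GLIPR1 at 11. PLAU was at place 35, CD69 at 36 and PLAUR at 112. Both RB98 libraries lay above both DMSO libraries in 6 of 6 members, as in 34.3% of all genes tested, and 20.5% of all genes tested passed an adjusted p of 0.05 upward in edgeR. Since the members were chosen on this contrast, nothing is read from these shares. The ratio of RB98 to DMSO within same-numbered libraries was 13.7 and 8.44 for GLIPR1, against 5.26 and 5.37 for PLAU.

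In the authors' deposited table the log2 changes with RB98 were 2.41 for PLAU, 1.53 for PLAUR, 3.49 for THBS1, 3.42 for GLIPR1, 2.41 for CD69 and 3.74 for IQCN.

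Per length, PLAU was the most abundant of the 6 with either treatment and IQCN the least. The authors' FPKM of PLAU was 95 and 97.6 with RB98, against 19.0 and 19.9 with DMSO. That of CD69 was 53.0 and 55.3 FPKM with RB98, against 10.4 and 11.5 FPKM with DMSO. PLAUR had 9.67 and 9.76 FPKM with RB98, against 3.49 and 3.74 FPKM with DMSO. GLIPR1 had 21.7 and 26.2 FPKM with RB98, against 2.05 and 2.76 FPKM with DMSO, so it lay above PLAUR in RB98 libraries and below it in DMSO libraries. THBS1 had 5.65 and 5.96 FPKM with RB98, against 0.515 and 0.589 FPKM with DMSO. IQCN had 3.35 and 4.09 FPKM with RB98, against 0.269 and 0.327 FPKM with DMSO. Within a treatment no pair of neighbours in the order overlapped.

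**Figure D2:**
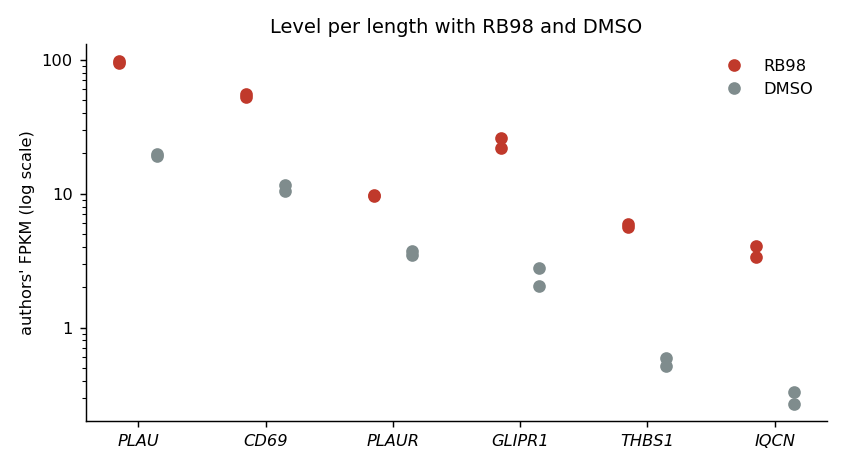
The authors' FPKM of the 6 genes, on a log axis, in the 2 RB98 libraries and the 2 DMSO libraries, ordered by the DMSO mean. GLIPR1 stands above PLAUR with RB98 (21.7 and 26.2 against 9.67 and 9.76 FPKM) and below it with DMSO.

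In the knockdown experiment, scaled apart from the other, the order per length was different at its top and its bottom. CD69 had 25.0 to 59.9 CPM per kb of exon in shRBPMS libraries and 18.2 to 61.9 in shCtrl libraries, above PLAU with 11.3 to 16.7 in shRBPMS libraries and 9.05 to 12.5 in shCtrl libraries. THBS1 was the lowest, with 0.0767 to 0.334 CPM per kb in shRBPMS libraries and 0.204 to 0.243 in shCtrl libraries, below IQCN with 0.344 to 0.434 and 0.330 to 0.443. PLAUR, with 3.30 to 4.60 in shRBPMS libraries and 3.71 to 4.78 in shCtrl libraries, and GLIPR1, with 1.19 to 2.10 and 1.10 to 1.53, stood between.

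After the knockdown 0 of 6 members passed an adjusted p of 0.05 in edgeR without a block, where 1.97% of all genes tested did. None had an unadjusted p under 0.05. DESeq2 and limma-voom also called 0 of the 6, where they called 8.26% and 1.85% of all genes. Libraries of the groups overlapped in all 6, while they stood apart in 25.9% of all genes tested. With the replicate number as a block, PLAU passed and the other 5 did not. That is 1 of 6, where the block called 28.1% of all genes tested. Counts among 6 genes are too small to set apart from these shares of all genes, so nothing is read from them.

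PLAU had 33.4, 49.3 and 44.9 CPM in shRBPMS replicates 1, 2 and 3, against 26.7, 36.8 and 36.6 CPM in shCtrl replicates 1, 2 and 3. In each of 3 same-numbered pairs the shRBPMS library was the higher, by 1.22 to 1.34 times, although the lowest shRBPMS library lay below 2 of the shCtrl libraries. The log2 change was 0.35 without the block (SE 0.20, adjusted p = 0.468, 95% interval -0.14 to 0.83). With the replicate block it was 0.35 (SE 0.07, adjusted p = 0.0123, interval 0.18 to 0.51). With the label set as a covariate PLAU also rose (0.35, adjusted p = 0.00347), in a fit that called 17.5% of all genes up. Within set 2 alone it rose by 0.36 (adjusted p = 4.76e-05; 20.5% of all genes tested were called up), in a fit added once the values were known. In the authors' deposited table, made from adjusted values, its log2 change was 0.36 with an adjusted p of 0.232. In limma on those adjusted values it did not pass (0.34, adjusted p = 0.382).

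PLAUR, the receptor, had 14.7, 20.5 and 18.7 CPM in shRBPMS libraries, against 16.5, 21.3 and 20.5 CPM in shCtrl libraries. It was lower in 3 of 3 pairs by small amounts. Its log2 change was -0.11 (SE 0.18, adjusted p = 0.854, 95% interval -0.55 to 0.32) and -0.12 with the block (adjusted p = 0.339, interval -0.31 to 0.08).

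THBS1 had 3.06, 0.703 and 0.93 CPM in shRBPMS replicates 1, 2 and 3, against 2.09, 1.86 and 2.23 CPM in shCtrl replicates 1, 2 and 3. These stand for 75, 20 and 26 counts, against 47, 52 and 78 counts. The shRBPMS library of set 1 lay above its shCtrl partner, and those of set 2 lay below every shCtrl library. Over all libraries the log2 change was -0.41 (SE 0.55, adjusted p = 0.808, 95% interval -1.71 to 0.89), and -0.61 with the block (adjusted p = 0.293). The log2 ratio was 0.55 within set 1 and -1.33 within set 2, and a contrast of the sets, chosen after these values were seen, gave a difference of 1.87 (edgeR adjusted p = 0.00363, where 17.3% of all genes tested passed). Set 1 has 1 library per group, so this contrast takes those libraries to vary like the ones in set 2. Within set 2 alone THBS1 had a log2 change of -1.33 (edgeR adjusted p = 0.000458, with 21.7% of all genes tested called down). This fit was added once the values were known and leaves out the 1 pair that rose, so nothing is read from its p-value. In limma on the authors' adjusted values THBS1 fell (-0.87, adjusted p = 0.0453, with 6.46% of genes called down). In the authors' deposited table its log2 change was -0.92 with an adjusted p of 0.110, which did not pass.

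GLIPR1 had 13.2, 7.45 and 8.08 CPM in shRBPMS libraries, against 9.63, 6.88 and 7.82 CPM in shCtrl libraries. The shRBPMS library was the higher in 3 of 3 pairs, by 1.37, 1.08 and 1.03 times, and the log2 change of 0.24 (SE 0.27, adjusted p = 0.760, 95% interval -0.40 to 0.88) did not pass. With the block it was 0.21 (adjusted p = 0.269, interval -0.09 to 0.51).

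CD69 had 70.7, 116 and 170 CPM in shRBPMS replicates 1, 2 and 3, against 51.5, 106 and 175 CPM in shCtrl replicates 1, 2 and 3. The level followed the replicate number more than the shRNA: replicate 3 over replicate 2 was 1.46 in shRBPMS and 1.65 in shCtrl, although both replicates are of set 2. Of 13512 genes with a mean of at least 1 CPM, 13 had ratios at least this high in both groups, CD69 included. The log2 change was 0.10 (SE 0.48, adjusted p = 0.961, 95% interval -1.04 to 1.24), and 0.17 with the block (adjusted p = 0.225, interval -0.06 to 0.40).

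IQCN had 3.95, 3.97 and 3.15 CPM in shRBPMS libraries, against 3.43, 4.05 and 3.03 CPM in shCtrl libraries. Its log2 change was 0.08 (SE 0.22, adjusted p = 0.928, 95% interval -0.44 to 0.59), and 0.07 with the block (adjusted p = 0.767). It was higher in 2 of 3 pairs. For all 6 genes the upper end of the knockdown interval lay below the change measured with RB98. Nothing is read from this, because the 6 genes were picked for large rises with RB98. The experiments have their own controls, and the difference between them was not tested because the members were chosen on one of them.

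**Figure D3:**
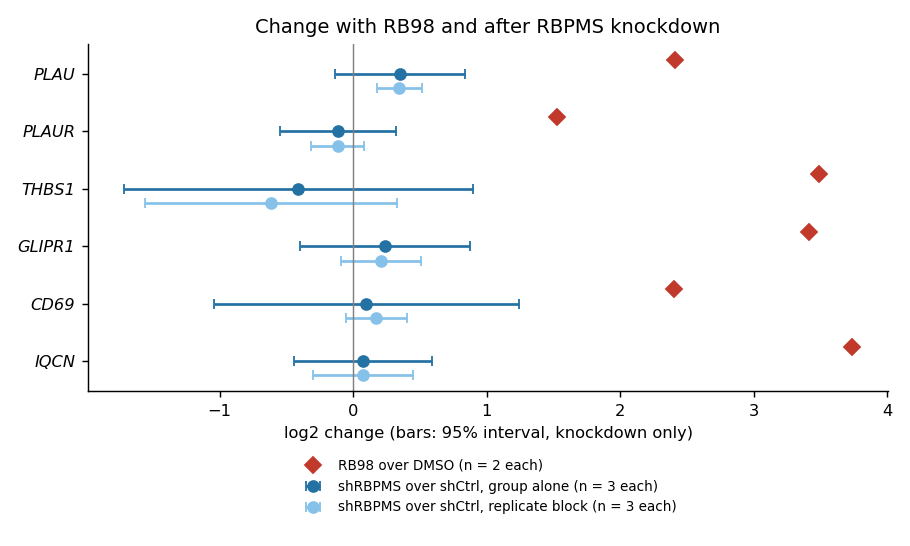
Log2 change of the 6 genes with RB98 over DMSO (diamonds, no test) and of shRBPMS over shCtrl (circles with 95% intervals, without and with the replicate block). Only the blocked interval of PLAU, 0.18 to 0.51, lies clear of 0 among the knockdown intervals.

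**Figure D4:**
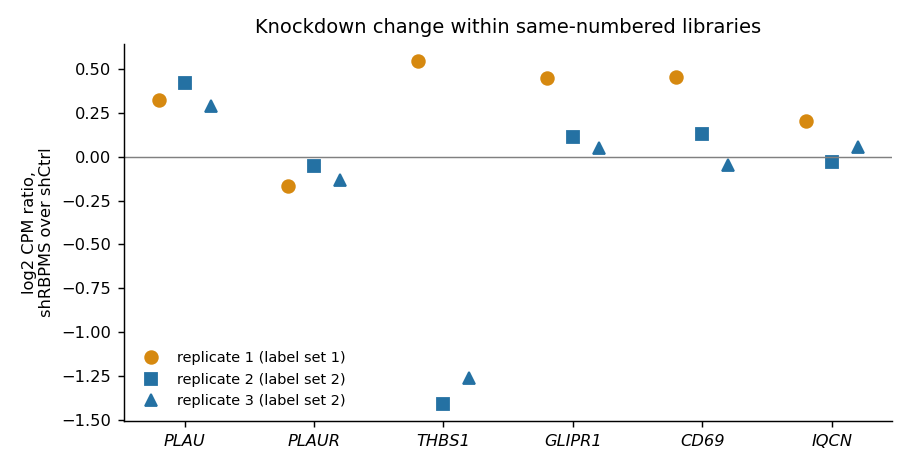
Log2 CPM ratio of shRBPMS over shCtrl within same-numbered libraries, orange for set 1 and blue for set 2. PLAU lies above 0 in 3 of 3 pairs, and THBS1 is at 0.55 in set 1 and at -1.41 and -1.26 in set 2.

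In GENCODE v29 on GRCh38 the 6 genes are protein coding. PLAU (ENSG00000122861) spans 73909177 to 73917497 of chromosome 10 (plus strand). PLAUR (ENSG00000011422) spans 43646095 to 43670547 of chromosome 19 (minus strand). THBS1 (ENSG00000137801) spans 39581079 to 39599466 of chromosome 15 (plus strand). GLIPR1 (ENSG00000139278) and CD69 (ENSG00000110848) are both on chromosome 12, at 75480680 to 75503853 (plus strand) and 9752486 to 9760901 (minus strand). IQCN (ENSG00000130518) spans 18257097 to 18274509 of chromosome 19 (minus strand), far from PLAUR.

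Of the 12 nearest tested genes, 1 on each side of each member, 2 rose with RB98 and 2 fell, where 20.5% of all genes tested rose and 17.3% fell. JUND and C10orf55 rose, and KRR1 and ATXN7L3B fell. ATXN7L3B lies 935325 bases from GLIPR1, so the nearest tested gene is not always an adjacent one. JUND, a subunit of the transcription factor AP-1, lies on the same strand as IQCN, and its end is 5242 bases from the start of IQCN. JUND was at 190 ± 17.8 CPM with RB98 and 32.8 ± 1.97 CPM with DMSO (SD, n = 2 each; log2 change 2.53, SE 0.08, adjusted p = 1.3e-17). After the knockdown JUND was at 84.9 ± 14.1 CPM in shRBPMS and 49.6 ± 16.7 CPM in shCtrl (SD, n = 3 each) and rose with the block (0.82, adjusted p = 0.0028) but not without it (0.77, adjusted p = 0.219), while IQCN next to it did not pass. C10orf55 runs on the other strand across PLAU and shares 916 exonic bases with it, 31.1% of the exonic length of PLAU. It was at 4.65 ± 0.50 CPM with RB98 and 1.52 ± 0.37 CPM with DMSO (log2 change 1.62, adjusted p = 0.000225). After the knockdown it rose with the block (1.28, adjusted p = 0.0193) but not without it (adjusted p = 0.0874). Whether counting used the strand is not stated, so reads of C10orf55 and PLAU cannot be told apart where they overlap. KRR1, a factor of ribosome assembly on the other strand of GLIPR1, shares 1516 exonic bases with it, 24.2% of the exonic length of GLIPR1. KRR1 fell with RB98, to 60.5 ± 2.32 CPM, against 85.5 ± 3.35 CPM with DMSO (log2 change -0.50, adjusted p = 1.59e-05). The part of KRR1 reads in the level of GLIPR1 was not tested. THBS1 shares 4.89% of its exonic length with FSIP1 on the other strand, a gene not used here. CAMK2G, CADM4, SMG9, RASGRP1, GPR176, CLECL1, LINC02470 and MPV17L2 did not pass with RB98. RAB3A, tested below IQCN in the knockdown only, did not pass there (0.28, adjusted p = 0.694). After the knockdown CADM4, the lower neighbour of PLAUR, fell (-1.75, adjusted p = 0.036), a call the block kept. With the block CLECL1 (1.37, adjusted p = 0.0061) and LINC02470 (0.96, adjusted p = 0.0255), the tested genes nearest to CD69, rose. RASGRP1 (-0.90, adjusted p = 0.0147), 1016265 bases from THBS1, and CAMK2G (-0.30, adjusted p = 0.0354), 34277 bases from PLAU, fell with the block. Without the block none of these passed (adjusted p = 0.0623, 0.321, 0.302 and 0.322, in this order). The block called 28.1% of all genes tested.

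Promoter windows of PLAU, PLAUR, THBS1 and IQCN, 250 bases before to 50 after a transcription start in RefSeq on GRCh38.p14, are shown because these genes stood higher together with RB98. CD69 and GLIPR1 are named only. PLAU has windows at a pair of starts, of which the more downstream is shown. Capitals mark matches, on either strand, of 8 motifs: the AP-1 site TGANTCA, the CRE site TGACGTCA, the EGR site GCGTGGGCG, the FOXO site TGTTTAC, the RUNX site TGTGGT, the TATA box TATAAA, the CArG box and the NF-kB site.
PLAU, chr10:73910882-73911181, plus strand: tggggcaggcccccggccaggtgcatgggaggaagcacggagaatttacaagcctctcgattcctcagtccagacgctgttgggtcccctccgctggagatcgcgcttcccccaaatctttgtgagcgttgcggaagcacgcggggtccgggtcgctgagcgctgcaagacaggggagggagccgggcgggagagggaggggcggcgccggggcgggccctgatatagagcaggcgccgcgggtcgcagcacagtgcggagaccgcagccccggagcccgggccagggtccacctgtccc
PLAUR, chr19:43670120-43670419, minus strand: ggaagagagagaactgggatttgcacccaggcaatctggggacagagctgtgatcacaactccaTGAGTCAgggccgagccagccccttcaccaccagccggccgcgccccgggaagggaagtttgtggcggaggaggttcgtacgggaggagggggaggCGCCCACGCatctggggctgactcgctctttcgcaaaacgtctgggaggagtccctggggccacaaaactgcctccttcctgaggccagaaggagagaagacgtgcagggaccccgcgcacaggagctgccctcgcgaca
THBS1, chr15:39580829-39581128, plus strand: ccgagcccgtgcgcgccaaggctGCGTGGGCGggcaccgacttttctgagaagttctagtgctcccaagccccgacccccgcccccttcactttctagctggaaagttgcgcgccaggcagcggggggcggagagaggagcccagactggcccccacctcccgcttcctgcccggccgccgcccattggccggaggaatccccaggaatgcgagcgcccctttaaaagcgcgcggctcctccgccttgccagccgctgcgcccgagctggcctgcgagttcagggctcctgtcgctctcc
IQCN, chr19:18274403-18274702, minus strand: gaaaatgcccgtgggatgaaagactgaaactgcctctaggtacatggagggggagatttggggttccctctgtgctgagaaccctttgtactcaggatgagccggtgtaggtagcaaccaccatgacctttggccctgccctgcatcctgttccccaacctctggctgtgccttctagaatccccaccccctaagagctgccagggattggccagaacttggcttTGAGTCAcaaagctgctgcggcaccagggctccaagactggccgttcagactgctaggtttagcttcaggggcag
The AP-1 site stood in the windows of PLAUR, bases -186 to -180 from the start, and of IQCN, bases -25 to -19. It is found in 7.71% of 35116 promoter windows of this length. The EGR site stood in the windows of PLAUR, bases -90 to -82, and of THBS1, bases -227 to -219, and is found in 0.795% of windows. The other 6 motifs had no match in the 5 windows searched, and neither window of PLAU held any of the 8. Sequence further upstream was not searched, so an empty window does not mean that a gene lacks the site. A match is a run of letters, not a shown binding site. The CRE site is found in 1.85% of all windows, the FOXO site in 3.42%, the RUNX site in 13.1%, the TATA box in 11.5%, the CArG box in 1.29% and the NF-kB site in 11.3%.

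Over all 10 libraries, the genes whose deviations from their own controls were nearest to those of PLAU were KLF6, a zinc finger transcription factor (root mean square difference 0.191 on the log2 scale), RHOB, a small GTPase (0.198), and SESN2, a sestrin (0.280). Among the members, CD69 was at place 8 for PLAU (0.369) and PLAUR at place 24 (0.473). GLIPR1 was at place 75 (0.617), IQCN at 82 (0.63) and THBS1 at 1188 (0.96). Nearest to PLAUR were EHD4, an endocytic recycling protein (0.0986), CABLES1 (0.122) and PDLIM7, an actin-associated LIM protein (0.127). EHD4 was at 67.1 CPM with RB98 and 22.7 CPM with DMSO, and at 17.6 CPM in shRBPMS and 18.6 CPM in shCtrl. Other members lay far from PLAUR among the 11721 genes compared. CD69 was at place 1192 (0.581), GLIPR1 at 9929 (0.947), IQCN at 10371 (0.99) and THBS1 at 11030 (1.10). Nearest to THBS1, at larger differences, were GLIPR1 (0.568), IQCN (0.642) and ATF3, a stress-induced bZIP factor (0.677). GLIPR1 was the gene nearest to IQCN (0.288), and the genes nearest to GLIPR1 were FILIP1L (0.276), IQCN and LIMA1, an actin-binding protein (0.317). FILIP1L (0.391) and LIMA1 (0.394) followed GLIPR1 for IQCN. Nearest to CD69 were VASN (0.307), SERTAD1 (0.350) and CSRNP1 (0.367). The comparison covered 11721 genes found in both experiments whose mean log2 CPM reached 0. It includes the libraries on which the members were chosen, so nothing is read from closeness between members.

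The tested part of the plasminogen list, which held no inhibitor such as PAI-1, moved little with RB98. Of 22 listed genes 9 were tested, and 1 rose and 0 fell, where 20.5% of all genes tested rose and 17.3% fell (list median log2 change 0.02; all genes 6.53e-05). The 1 was IGF2R, a receptor that also binds plasminogen and PLAUR, with 151 ± 4.40 CPM with RB98 and 124 ± 2.25 CPM with DMSO (0.29), a call lost without DMSO replicate 1. Of 13 membrane partners of the urokinase receptor 7 were tested, and 2 rose and 0 fell (median 0.13). These were the integrins ITGAV (0.48) and ITGB1 (0.28). Matrix proteases with their inhibitors moved both ways, with 4 up and 3 down of 15 tested (29 listed, median -0.10). These counts were 1 up without DMSO replicate 1, 2 up and 1 down without DMSO replicate 2, 2 up with DESeq2 and 1 up with library totals. The sheddases ADAM9 (0.44), ADAM17 (0.26) and ADAM10 (0.19) and the inhibitor TIMP2 (0.24) rose, and the matrix metalloproteases MMP25 (-0.60), MMP15 (-0.51) and MMP17 (-0.42) fell.

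Other thrombospondins and their receptors also moved both ways, with 3 up and 4 down of 12 tested (19 listed, median 0.01), and 2 down with DMSO replicate 1 or 2 left out. SDC1, a syndecan, fell to 46.2 ± 6.96 CPM with RB98, against 90.0 ± 1.98 CPM with DMSO (-0.96), and the CD47 ligand SIRPA (-0.94), THBS3 (-0.54) and CD47 (-0.27) fell. ITGAV and ITGB1 rose, as did STIM1 (0.24). Of 14 other CAP proteins 3 were tested. CRISPLD2, a secreted CAP protein, rose to 3.77 ± 0.37 CPM with RB98, against 0.547 ± 0.291 CPM with DMSO (2.75, adjusted p = 9.04e-06), and CRISPLD1 fell (-0.73, adjusted p = 0.000286). Of 20 listed lectins of the natural killer gene complex, to which CD69 belongs, 1 was tested, KLRG1 (log2 change -1.06, not called).

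Of 14 genes listed with CD69, as partners or signalling genes, 11 were tested, and 5 rose and 1 fell (median 0.37). Of all genes tested 20.5% rose and 17.3% fell. SLC3A2 (0.59), a chain of the amino acid transporter that CD69 has been reported to bind, rose, as did AHR (0.56), the sphingosine-1-phosphate receptor S1PR3 (0.55) and STAT5B (0.46). S1PR4 fell (-0.34), a call lost in DESeq2 and with any library left out but RB98 replicate 2. Of 20 genes of the IQ motif list 13 were tested, with 2 up, among them IQGAP1 (0.42), and 3 down, IQCG (-0.74), IQCC (-0.55) and IQSEC1 (-0.47), and a median of -0.01. With DMSO replicate 1 or 2 left out, and with DESeq2, 1 was called down.

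Of 36 other secreted and surface genes known to be induced by stimulation, 14 were tested, with 5 up and 1 down (median 0.07). CXCL8, a neutrophil chemokine, was at 29.7 ± 9.32 CPM with RB98 and 7.92 ± 0.10 CPM with DMSO (1.91, SE 0.17). OSM (1.38) and HBEGF (1.31), both secreted ligands, and the TWEAK receptor TNFRSF12A (1.13) rose, and CD83 fell (-0.50). Of 15 transcription factors reported at the urokinase promoter 14 were tested, and 12 rose and 0 fell (median 0.65). Of all genes tested 20.5% rose and 17.3% fell. DESeq2 called 9 of the factors up and 0 down. The list was chosen with earlier results of these data known, so nothing is read from its count. A link of these factors to the level of PLAU was not tested. JUN was at 213 ± 4.21 CPM with RB98 and 14 ± 0.55 CPM with DMSO (3.93, SE 0.08), and ATF3 at 65.3 ± 5.95 CPM and 7.68 ± 2.45 CPM (3.08, SE 0.14). JUND and FOS (1.71, from 1.95 ± 0.63 CPM with RB98 and 0.581 ± 0.243 CPM with DMSO) also rose. With 1 library of a group left out, 7 to 11 of these factors were called up, the fewest without DMSO replicate 2. With library totals in place of TMM 9 were called up and 2 down.

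**Figure D5:**
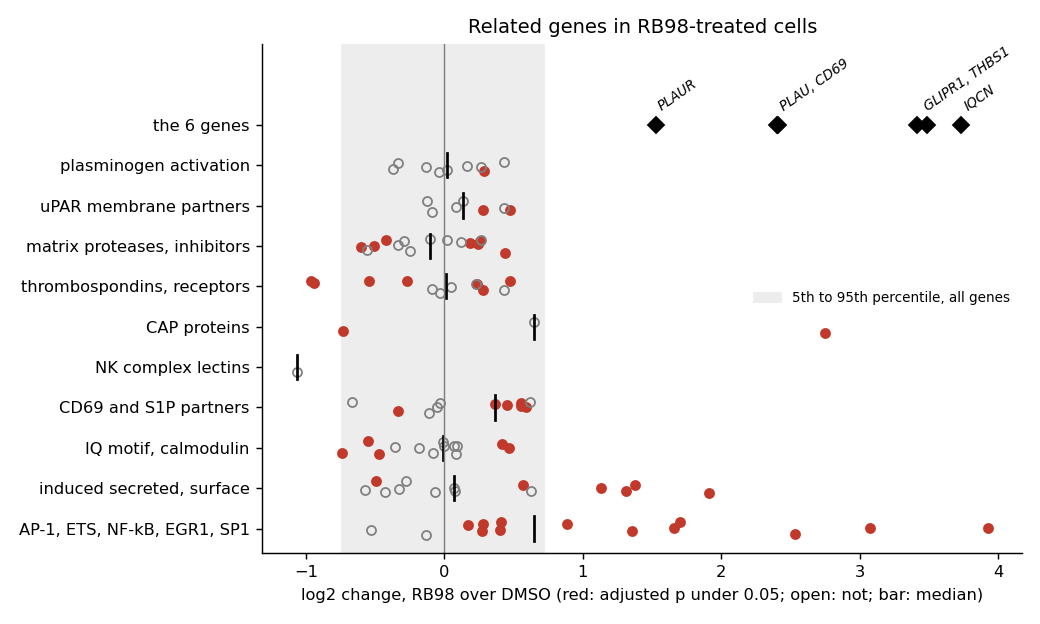
Log2 change with RB98 over DMSO of related genes, by list, with the 6 genes in the top row. Filled points passed an adjusted p of 0.05, and bars are list medians. The grey band runs from -0.74 to 0.72, the 5th to 95th percentile of all genes tested. The factor list has the most points to the right of the band. It was chosen with earlier results of these data known, so nothing is read from this.

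After the knockdown these lists gave few calls without the block and calls in both directions with it, where the block called 13.3% of all genes up and 14.8% down (median of all genes 0.015 without the block). Without the block edgeR called 0 genes in the plasminogen, receptor partner, thrombospondin, CAP, lectin, IQ motif and factor lists. At an unadjusted p under 0.05 these lists held 3, 3, 3, 0, 1, 5 and 3 genes, DESeq2 called 2, 2, 2, 0, 1, 2 and 1, and limma-voom called 0 in each but 1 IQ motif gene. In the plasminogen system (11 tested, median 0.05) the block called 2 up and 3 down. ST14, a membrane protease that can activate urokinase, had 4.06 ± 2.74 CPM in shRBPMS and 1.07 ± 0.18 CPM in shCtrl (blocked log2 change 1.76), and PLGRKT, a plasminogen receptor, had 0.80. S100A10 (-1.22), LRP1 (-1.01), which clears urokinase from the surface, and ENO1 (-0.35) fell with the block.

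Among the receptor's partners (7 tested, median -0.42) the block called ITGB1 up (0.29) and ITGA3 (-1.44) and LRP1 down. Without the block 2 of 16 matrix proteases and inhibitors fell and 0 rose (median -0.02). MMP2, a gelatinase, fell to 8.36 ± 0.82 CPM in shRBPMS, against 25.0 ± 8.53 CPM in shCtrl (-1.58, SE 0.26, adjusted p = 0.0378), and MMP17 had -1.20 (adjusted p = 0.0428). The block called 2 up, TIMP1 (0.69) and MMP25 (0.43), and 4 down, among them RECK (-0.96). In the thrombospondin list (13 tested, median 0.06) it called 4 up, among them THBS3 (0.81), TGFB1 (0.29) and ITGB1, and 2 down, ITGA3 and LRP1. None of 3 CAP proteins was called with the block (median 0.12), and of 3 lectins CLEC12A rose (2.27, 2.07 ± 1.27 CPM in shRBPMS and 0.381 ± 0.041 CPM in shCtrl; list median 0.26).

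The genes listed with CD69 held 1 call in each direction without the block (11 tested, median -0.09). LGALS1, galectin 1, rose to 3.75 ± 0.43 CPM in shRBPMS, against 0.685 ± 0.283 CPM in shCtrl (2.43, adjusted p = 0.0281), and S1PR2 fell (-1.12, adjusted p = 0.0419). The calls of LGALS1, MMP2 and MMP17 were lost with any library left out but shCtrl replicate 1, and those of S1PR2 and TNF with any library left out. The block called 3 up, with S100A9 (0.74) and S1PR4 (0.23) beside LGALS1, and 5 down, among them AHR (-0.93) and JAK3 (-0.85). Of 14 genes of the IQ motif list (median -0.14) the block called IQCE (1.30) and IQCG (0.61) up and 3 down, IQGAP3 (-0.43), IQGAP1 (-0.38) and CALM2 (-0.36). Of 17 induced secreted and surface genes 1 fell without the block and 0 rose (median -0.23), TNF, at 0.100 ± 0.091 CPM in shRBPMS and 1.35 ± 0.18 CPM in shCtrl. The block called CXCL8 (1.03) and IL1B (0.71) up and 4 down, among them F3 (-1.39), the coagulation receptor tissue factor, CXCL2 (-1.22) and CXCL3 (-1.08). Of 14 promoter factors (median -0.27) it called 4 up, among them JUND, FOSL1 (0.68) and RELA (0.30), and 4 down, among them FOSL2 (-1.11), FOS (-0.55) and SP1 (-0.28). JUN (adjusted p = 0.0519 with the block) and ATF3 (0.091) were called neither without nor with the block.

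No marker of another cell type passed upward with RB98. CSF1R passed downward (-1.24, adjusted p = 0.0426), a call lost in DESeq2, with the block and with any library left out. T and NK markers, which matter for CD69, had 1 of 10 tested, CD3D, and summed to 2.87 to 3.06 CPM with RB98 and 2.76 to 2.87 CPM with DMSO. B cell markers (2 of 4 tested) summed to 6.72 to 9.56 CPM with RB98 and 9.73 to 9.76 CPM with DMSO. Monocyte markers (2 of 8) summed to 22.1 to 23.8 CPM with RB98, most of it LYZ, and 20.3 CPM in both DMSO libraries. Megakaryocyte markers, which matter for THBS1, had 1 of 5 tested, ITGA2B, with 2.39 to 2.99 CPM with RB98 and 3.55 to 4.89 CPM with DMSO. The endothelial marker PECAM1 (1 of 5) had 83.5 to 85.7 CPM with RB98 and 92.5 to 93.1 CPM with DMSO, the epithelial marker EPCAM (1 of 5) 44.4 to 44.9 CPM and 49.0 to 54.4 CPM, and 0 of 6 fibroblast markers were tested. Of the myeloblast markers MPO and PTPRC rose with RB98 and KIT, CD34 and CD33 fell, and with DMSO replicate 1 or 2 left out 1 of the pair that rose was called. In shRBPMS CD33 (1.71), ANPEP (1.79) and PTPRC (2.29) rose. Of these 3 calls 0 were left without shRBPMS replicate 2, shRBPMS replicate 3, shCtrl replicate 2 or shCtrl replicate 3, and 2 without replicate 1 of either group; the T and NK and megakaryocyte calls below were lost without the same 4 libraries. In shRBPMS, T and NK markers (3 of 10 tested, 2 down) summed to 2.36 to 3.34 CPM, against 9.22 to 11 CPM in shCtrl, and PECAM1 had 45.7 to 104.7 CPM, against 96.6 to 404 CPM. Monocyte markers summed to 5.90 to 7.34 CPM in shRBPMS and 3.88 to 5.68 CPM in shCtrl, and EPCAM had 36.1 to 65.4 CPM and 26.6 to 40.1 CPM. Megakaryocyte markers (2 of 5 tested, 1 down) summed to 2.65 to 3.08 CPM in shRBPMS and 5.30 to 7.05 CPM in shCtrl, and B cell markers (3 of 4) to 5.59 to 6.88 CPM and 5.57 to 9.87 CPM. Their part in the knockdown values of the 6 genes was not tested. In bulk RNA fewer expressing cells and less RNA per cell cannot be told apart.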

How the data were processed

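RNA of Kasumi-1 cells was sequenced in 10 libraries of 2 experiments. Tools named in the submitters' processing notes include HISAT2 2.2.1, DESeq2 1.32.0, fastp 0.22.0, StringTie and featureCounts 2.0.1, with hg38/GRCh38 as the build. Counts per gene were deposited as whole numbers, without normalisation, per the file headers. After 112 repeated lines were dropped by identifier the RB98 table held 12325 genes, none of them summing to under 50 counts, and the knockdown table held 16405, none under 27. FPKM values were deposited by the authors in the RB98 table and are proportional to the counts of a library, and their columns were matched to libraries by name. The knockdown table also holds signal values that the authors adjusted in an unstated way, used as an alternative only. The deposited log2 changes and p-values, mean signal and test score are the authors' own comparison.

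Counts were tested with edgeR 4.0.16 on R 4.3.3 (quasi-likelihood, TMM, filterByExpr with a count of 10 and a total of 15, group alone, two-sided), with Benjamini-Hochberg adjustment over all genes of an experiment at 0.05. The SE is the log2 change over the square root of F. The pipeline was checked on simulated counts of independent libraries, without replicate or set effects, so the check does not bear on those. Same-numbered knockdown libraries deviated together (correlation 0.852, 0.772 and 0.800 over 10606 genes), so the blocked fit is given where it changes a call, although replicate 2 against replicate 3 gave 0.7674 and 0.7765. Totals limit the precision, most for genes under 5 CPM. DESeq2 1.42.0, limma 3.58.1 voom and the other alternatives are in the closing section.

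Named genes are the 6 members, RBPMS, the 3 genes nearest to each member by root mean square difference, the nearest tested gene on each side, and, per list, up to 4 genes per direction with RB98 and up to 3 after the knockdown with the largest log2 change past 0.05 and a mean of at least 1 CPM; KLRG1 was added as the 1 lectin tested. The members, and the 18 lists with 253 entries (members left out), were chosen with earlier results of these data known. TNF is named at a mean below 1 CPM because it was the 1 call of its list. A gene that the rule names in the IQ motif list is not reported here.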

Additional observations from a re-analysis of the deposited data

Results flagged for a closer look

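The change of THBS1 after the knockdown differed between the library sets: set 1 minus set 2 was 1.87 on the log2 scale (edgeR adjusted p = 0.00363). In set 1 the shRBPMS library had 3.06 CPM, against 2.09 CPM in the shCtrl library, and in set 2 the shRBPMS libraries had 0.703 and 0.93 CPM, against 1.86 and 2.23 CPM. The same contrast passed in 17.3% of all genes tested, and it rests on 1 library per group in set 1.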

How the results depend on the processing

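The count of genes called after the knockdown was 320 in edgeR without a block, and it depended on the setting. It was 1339 with DESeq2, 4549 with the replicate block, 5810 with the label set as a covariate, 1870 with limma on the authors' adjusted values and 6830 in set 2 alone, a fit added after seeing the data. Leaving out 1 library gave 0 to 322 genes, with 0 in edgeR without shRBPMS replicate 2, shRBPMS replicate 3 or shCtrl replicate 3 (1866, 2002 and 2010 at an unadjusted p under 0.05), 2 without shCtrl replicate 2 and 37 without shRBPMS replicate 1. Of the 6 members 0 were called without a block, 1 (PLAU) with the replicate block and with the label set, 1 (THBS1) with the authors' adjusted values and 2 (both) in set 2 alone. The replicate block changed the call of no other member. Leaving out 1 library gave log2 changes of -0.23 to 0.011 for PLAUR, -0.061 to 0.39 for GLIPR1, -0.26 to 0.58 for CD69, -0.034 to 0.18 for IQCN, 0.20 to 0.50 for PLAU and -1.33 to -0.06 for THBS1, none of them called; the sign of PLAUR and GLIPR1 turned without shRBPMS replicate 1, that of IQCN without shCtrl replicate 3, and that of CD69 without shRBPMS replicate 3 or shCtrl replicate 1.

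With RB98 edgeR called 4659 genes (2530 up and 2129 down), and 2731 to 5028 with 1 library left out, the fewest without DMSO replicate 2 and 2843 without DMSO replicate 1. With the replicate block, which has no basis in that experiment (correlation -0.0585), it called 4430. With library totals in place of TMM the median of all genes shifted to -0.10 and the split was 1690 up and 3276 down, and each of the 6 members also changed by -0.10. DESeq2 called 3287. Under the alternatives the log2 change with RB98 ranged from 1.43 to 1.58 for PLAUR, 2.31 to 2.45 for PLAU, 2.30 to 2.48 for CD69, 3.22 to 3.64 for GLIPR1, 3.39 to 3.59 for THBS1 and 3.57 to 3.88 for IQCN. Depth limits THBS1 and IQCN most, with 20 to 113 counts per library in the knockdown and in DMSO. The cause of these differences between settings was not tested.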
